A study of Homo sapiens with 6 samples.

Results

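The FOS, JUN, ATF3 and EGR1 genes encode transcription factors, several of which cells switch on within minutes of growth signals or stress. FOS and JUN proteins pair through leucine zippers to form AP-1, a dimer that binds DNA at TGACTCA and related words, and ATF3 is a zipper protein that can pair with JUN. JUN can also pair with itself, while FOS proteins need a partner. EGR1 is a zinc finger protein that is induced by the same kinase pathways. In pancreatic cancer cells, signalling through the kinase ERK raises the level of FOSL1.

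A total of 9 genes was examined out of 20263 in the count table: FOS, FOSB, FOSL1, FOSL2, JUN, JUNB, JUND, ATF3 and EGR1. They were chosen by family name, at a time when the counts and fold changes of these same libraries were known, across all 3 siRNA groups. Their values are therefore given as a description, without p-values. All 9 had enough counts to enter the fit over 13769 genes.

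The cells were AsPC-1, a human pancreatic adenocarcinoma line. They were transfected with 1 of 2 siRNAs against HMOX1 (HMOX1si1 or HMOX1si2) or with a negative control siRNA (siControl), each group with 2 libraries of polyadenylated RNA. All groups received siRNA and transfection reagent, so no group shows untreated cells. HMOX1 encodes heme oxygenase-1, which degrades heme, and the study asked how it bears on proliferation. The labels do not say that replicates were separate cultures, so every error below is the spread between libraries, which may be technical.

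The libraries held 36144330 to 45068660 counts. HMOX1 was at 2.43 and 2.80 CPM with HMOX1si1 and at 1.27 and 1.17 CPM with HMOX1si2, against 9.06 and 8.52 CPM with siControl (CPM, counts scaled to a common library size with TMM factors). In such bulk RNA, fewer cells of a kind and less RNA per cell cannot be told apart. All 9 pancreatic epithelial markers, among them KRT8 and EPCAM, were above 1 CPM in every library. Their sum was 10800 and 10900 CPM with HMOX1si1 and 14600 and 14800 CPM with HMOX1si2, against 14500 and 16300 CPM with siControl, and so was lowest with HMOX1si1. Of 8 fibroblast, 7 blood and 6 endothelial markers, 3, 3 and at most 1 were above 1 CPM. LUM at 73.6 to 121 CPM and CD68 at 87.6 to 163 CPM carried the first 2 lists, while CD3E and HBB were at 0 in all libraries. Summed fibroblast markers were at 96.1 to 99.8 CPM with HMOX1si1 and 84.1 to 91.1 CPM with HMOX1si2, against 122 to 128 CPM with siControl. Summed blood markers were at 178 to 208, 132 to 161 and 136 to 156 CPM in that order of groups. The part of these 3 marker lists in the results was not tested.

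Promoter sequences from RefSeq (GRCh38.p14) were searched for 8 of the 9 genes, all but FOSL1, to show which short words lie near their starts. The 250 bases before the start are shown for JUN, ATF3, EGR1 and JUND. The first 3 had higher counts in the knockdown libraries and JUND did not. Capitals mark the words TGACATCA (JUN and ATF3), TGACGTCA (JUND) and the CArG box, the element bound by serum response factor (EGR1). FOSB, which also had higher counts in the knockdown libraries, holds none of these marked words in its window.

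JUN, chr1:58784048-58784297, minus strand: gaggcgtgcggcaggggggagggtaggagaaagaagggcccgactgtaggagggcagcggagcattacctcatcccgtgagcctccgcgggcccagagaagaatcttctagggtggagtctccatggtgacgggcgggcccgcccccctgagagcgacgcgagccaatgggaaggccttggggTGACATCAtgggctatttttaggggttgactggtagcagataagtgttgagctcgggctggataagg
ATF3, chr1:212565157-212565406, plus strand: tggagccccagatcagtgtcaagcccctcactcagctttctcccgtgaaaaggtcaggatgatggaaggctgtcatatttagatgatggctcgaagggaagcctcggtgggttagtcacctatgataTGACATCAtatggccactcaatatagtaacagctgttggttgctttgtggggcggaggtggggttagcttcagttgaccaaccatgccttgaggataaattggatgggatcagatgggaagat
EGR1, chr5:138465229-138465478, plus strand: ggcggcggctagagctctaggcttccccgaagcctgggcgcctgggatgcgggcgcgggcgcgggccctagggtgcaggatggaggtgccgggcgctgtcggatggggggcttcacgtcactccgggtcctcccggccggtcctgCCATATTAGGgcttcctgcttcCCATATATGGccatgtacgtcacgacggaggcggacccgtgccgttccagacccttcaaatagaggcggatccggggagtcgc
JUND, chr19:18281623-18281872, minus strand: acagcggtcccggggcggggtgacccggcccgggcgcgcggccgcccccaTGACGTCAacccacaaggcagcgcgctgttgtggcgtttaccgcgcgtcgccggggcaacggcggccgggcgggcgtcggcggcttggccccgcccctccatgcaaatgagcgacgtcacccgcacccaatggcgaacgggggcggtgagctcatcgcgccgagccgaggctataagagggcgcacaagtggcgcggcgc

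Positions are counted from the RefSeq start, with -1 as the last base before it, and give a word's first base. TGACATCA began at -67 in JUN and at -123 in ATF3, which has a second start whose window lacks the word. It occurs in 2.61% of 35116 human promoter windows (250 bases before to 50 after the start, both strands). EGR1 held CArG boxes at -105 and -83, and 1.29% of all windows hold at least 1. TGACGTCA began at -200 in JUND and occurs in 1.85% of windows. TGACTCA, found in 4.95%, occurred among these 8 genes only in FOSL2, at 5 bases after the start. FOS, FOSB and JUNB, whose sequences are not shown, share TATAAA on the coding strand at -33, -30 and -31, a word in 7.33% of windows. They also hold TGACG, the left part of TGACGTCA, at -64, -60 and -137, and 24.6% of windows contain it on either strand. JUN, FOSL2, JUND and EGR1 hold TGACG too, on either strand, and ATF3 does not, so the word does not set FOS, FOSB and JUNB apart. These matches describe letters and are not evidence of binding.

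Among the FOS genes, FOSL1 was higher with both HMOX1 siRNAs, and FOSB was higher from a low level. Per kilobase of merged exon FOSL1 was the most abundant of them in every library, but per kilobase of coding length FOSL2 held 50.8% of their sum in siControl replicate 1, against 42.8% for FOSL1. FOSL1 (ENSG00000175592, chromosome 11, 65892049 to 65900573, minus strand) encodes FRA1, a FOS protein without a strong activation domain of its own. It had 199 and 257 CPM with HMOX1si1 and 157 and 141 CPM with HMOX1si2, against 73.1 and 64.5 CPM with siControl. Every knockdown library lay above both controls, and both HMOX1si1 libraries lay above both HMOX1si2 libraries. The fold change was 3.31 with HMOX1si1 (log2 1.73, SE 0.16) and 2.17 with HMOX1si2 (log2 1.11, SE 0.15).

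FOSB (ENSG00000125740, chromosome 19, 45467995 to 45475179, plus strand) had 10.5 and 14.4 CPM with HMOX1si1 and 7.42 and 6.03 CPM with HMOX1si2, against 3.95 and 2.86 CPM with siControl. The 3 groups did not overlap, in the same order as for FOSL1. On the log2 scale the fold change was 1.87 for HMOX1si1 (SE 0.24) and 0.98 with HMOX1si2 (SE 0.24). Its counts were 127 to 574 in a library.

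FOS itself (ENSG00000170345, chromosome 14, 75278774 to 75282230, plus strand), the founding member of the family, had 11.5 and 13.0 CPM with HMOX1si1 and 17.1 and 9.66 CPM with HMOX1si2, against 11 and 11.9 CPM with siControl. The HMOX1si2 libraries spanned both other groups. Its fitted log2 difference from siControl was 0.09 for HMOX1si1 (SE 0.27) and 0.22 with HMOX1si2 (SE 0.27), below its standard error in each case.

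FOSL2 (ENSG00000075426, chromosome 2, 28392448 to 28417312, plus strand), which encodes FRA2, varied most between replicates. It had 116 and 41.9 CPM with HMOX1si1 and 40.1 and 38.7 CPM with HMOX1si2, against 104 and 33.0 CPM with siControl. Replicate 1 was 2.77 times replicate 2 with HMOX1si1 and 3.16 times with siControl, whereas the HMOX1si2 libraries differed by 1.04 times. Fitted log2 fold changes were 0.21 for HMOX1si1 (SE 0.63) and -0.80 with HMOX1si2 (SE 0.63), and the HMOX1si2 value was 0.25 without siControl replicate 1. No direction can be read for this gene, and its exons overlap no other gene of the table in GENCODE 29.

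**Figure D1:**
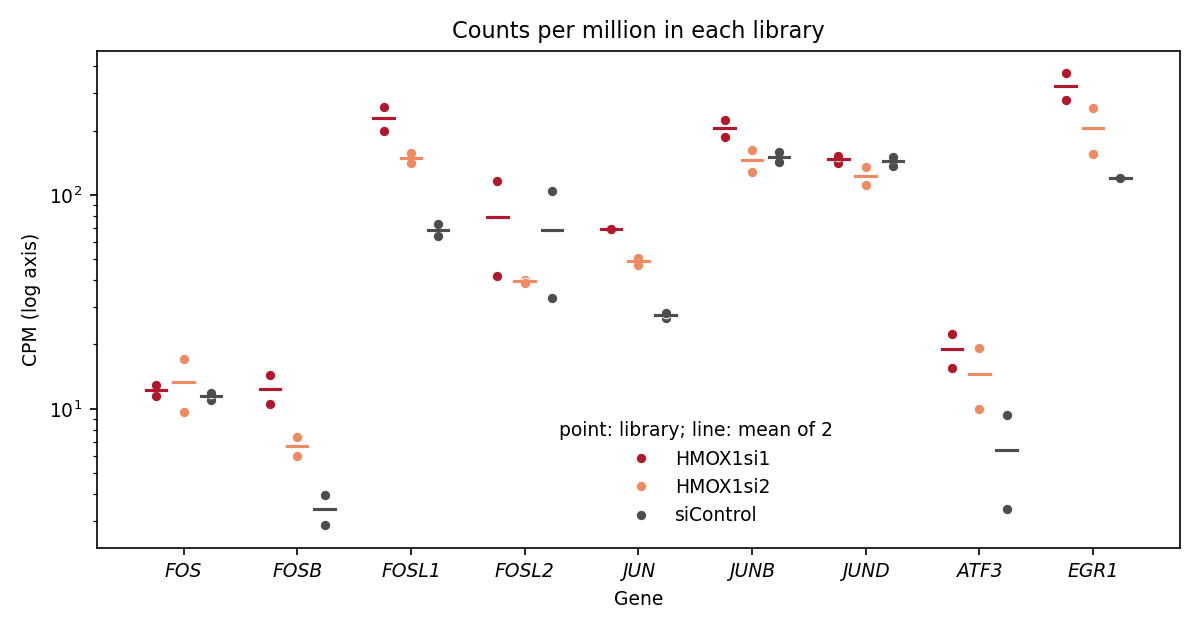
CPM (log axis) of the 9 genes in the 6 libraries, with HMOX1si1, HMOX1si2 and siControl from left to right; points are libraries and lines are means of 2. FOSL1, FOSB, JUN and EGR1 step down from HMOX1si1 to HMOX1si2 and siControl without overlap, FOSL2 spreads from 33.0 to 104 CPM within siControl, and JUND lies between 111 and 152 CPM throughout.

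JUN was the JUN gene that was higher with both siRNAs, and its replicates lay closest together. JUN (ENSG00000177606, chromosome 1, 58780788 to 58784327, minus strand, a single exon) encodes c-Jun, the partner that kinases of the JNK group phosphorylate. It had 68.4 and 69.6 CPM with HMOX1si1 and 50.6 and 47.2 CPM with HMOX1si2, against 26.6 and 28.2 CPM with siControl. The groups were far apart relative to the replicates, which differed by at most 1.07 times. The fold change was 2.52 with HMOX1si1 (log2 1.33, SE 0.09) and 1.78 with HMOX1si2 (log2 0.84, SE 0.09).

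JUNB and JUND, whose proteins are weaker activators than c-Jun in many settings, had smaller differences. JUNB (ENSG00000171223, chromosome 19, 12791496 to 12793315, plus strand) had 187 and 225 CPM with HMOX1si1 and 162 and 128 CPM with HMOX1si2, against 142 and 159 CPM with siControl. The HMOX1si1 libraries lay above both controls and the HMOX1si2 libraries spanned them. That gave log2 fold changes of 0.45 for HMOX1si1 (SE 0.15) and -0.06 with HMOX1si2 (SE 0.15). JUNB shares exonic bases with HOOK2 on the opposite strand, and reads of the pair cannot be told apart unless the counting used strand, which the sources used here do not give.

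JUND (ENSG00000130522, chromosome 19, 18279760 to 18281622, minus strand) had 141 and 152 CPM with HMOX1si1 and 135 and 111 CPM with HMOX1si2, against 137 and 151 CPM with siControl. Both HMOX1si2 libraries were below both controls, the upper of them by a narrow margin, while HMOX1si1 overlapped the controls. In log2 terms JUND differed by 0.03 for HMOX1si1 (SE 0.12) and -0.23 with HMOX1si2 (SE 0.12).

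ATF3 and EGR1 were higher in every knockdown library than in both controls. EGR1 (ENSG00000120738, chromosome 5, 138465490 to 138469315, plus strand) had 279 and 370 CPM with HMOX1si1 and 254 and 155 CPM with HMOX1si2, against 120 and 120 CPM with siControl. The controls were nearly equal, while the HMOX1si2 libraries differed by 1.63 times. The fold change was 2.71 with HMOX1si1 (log2 1.44, SE 0.25) and 1.71 with HMOX1si2 (log2 0.77, SE 0.25), and the HMOX1si2 log2 value was 0.37 without HMOX1si2 replicate 1.

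ATF3 (ENSG00000162772, chromosome 1, 212565334 to 212620777, plus strand), a stress-induced repressor, had 22.4 and 15.6 CPM with HMOX1si1 and 19.3 and 9.97 CPM with HMOX1si2, against 9.40 and 3.42 CPM with siControl. The lowest knockdown library, at 9.97 CPM, was just above the highest control. The control libraries differed by 2.74 times, so the log2 fold changes of 1.57 with HMOX1si1 (SE 0.53) and 1.20 with HMOX1si2 (SE 0.53) are imprecise. On average over both siRNAs the log2 fold change was 1.39, but 2.28 without siControl replicate 1 and 0.83 without siControl replicate 2.

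**Figure D2:**
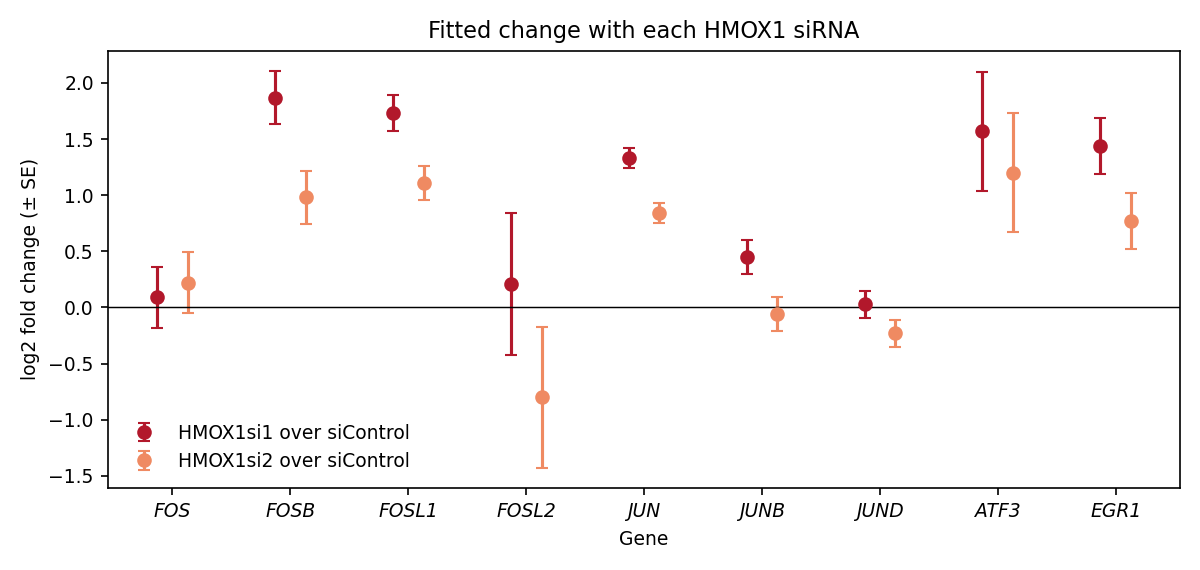
Log2 fold change over siControl with its standard error for HMOX1si1 (left of each pair) and HMOX1si2. FOSB, FOSL1, JUN, ATF3 and EGR1 lie above 0 with each siRNA, at 0.77 to 1.87, and both siRNAs are set against the same 2 control libraries.

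With both siRNAs averaged, FOSB, FOSL1, JUN and EGR1 were past the threshold of the fit over all genes (edgeR quasi-likelihood, adjusted p under 0.05), 4 of 9 genes, where 5.16% of all genes were called higher and 4.93% lower. ATF3 did not overlap the controls but was not called by edgeR, so 5 of 9 genes were higher without overlap, as were 18.7% of all genes. DESeq2 called 5 of the 9 on average, and 2674 of 13769 genes. With HMOX1si1 the called genes were the same 4 (background 5.02% higher and 5.01% lower) and 6 of 9 did not overlap the controls upward (31.9% of all genes). With HMOX1si2, FOSL1 and JUN were called (background 3.06% higher and 2.67% lower). Here 5 genes did not overlap the controls upward (28.9% of all genes) and JUND did not downward (28.1%). The genes were chosen with these contrasts known, and nothing is read from the counts. The median log2 fold change of the 9 genes was 1.33 with HMOX1si1 and 0.77 with HMOX1si2, while the medians of all tested genes were -0.001 and 0.002. Without siControl replicate 1 or siControl replicate 2, edgeR called 0 genes of the table on average, with 3459 and 2562 at an unadjusted p under 0.05.

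For FOSB, FOSL1, JUN, ATF3 and EGR1, the siRNA with the deeper loss of HMOX1 was the one with the smaller fitted rise. HMOX1si2 left HMOX1 at 13.9% of control on the linear scale of the fit and HMOX1si1 at 29.8%. In 8 of the 9 genes, all but FOS, the fitted HMOX1si2 value was nevertheless below the HMOX1si1 value. In 7 of them the HMOX1si2 libraries were both below the HMOX1si1 libraries, as were those of 26% of all genes. The log2 difference, HMOX1si2 minus HMOX1si1, was -0.89 for FOSB (SE 0.23), -0.67 for EGR1 (SE 0.25), -0.61 for FOSL1 (SE 0.15), -0.51 for JUNB (SE 0.15) and -0.50 for JUN (SE 0.09). It was -1.01 for FOSL2 (SE 0.63), -0.38 for ATF3 (SE 0.51), -0.26 for JUND (SE 0.12) and 0.13 for FOS (SE 0.27). FOS, FOSL2 and JUND lay further from siControl with HMOX1si2 than with HMOX1si1. JUN alone was past the threshold (background 1.49% lower and 2.14% higher), and in none of the fits that left out 1 library was it past it. Effects of the 2 siRNA sequences on other transcripts cannot be told apart from the extent of knockdown in this design.

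Levels were set side by side per kilobase of merged exon (GENCODE 29, GRCh38). On that scale the FOS genes summed to 138 ± 15.6 CPM per kilobase with HMOX1si1 and 89.8 ± 8.27 with HMOX1si2, against 50.2 ± 10.2 with siControl (SD, n = 2 each). FOSL1 made up 82.9 and 91.6% of that sum with HMOX1si1 and 87.2 and 88.7% with HMOX1si2, against 67.5 and 79.5% with siControl. FOS held 2.80 and 2.70%, 5.54 and 3.55%, and 5.93 and 8.57% in the same order of groups. FOSB never exceeded 1.74%, so its fold change added little to the sum.

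The JUN genes summed to 212 ± 19.1 CPM per kilobase with HMOX1si1 and 159 ± 22.6 with HMOX1si2, against 168 ± 12.0 with siControl (SD, n = 2 each). JUN had a higher share with each siRNA and was the smallest of the 3 in every library, at 9.75 and 8.75% with HMOX1si1 and 8.15 and 9.31% with HMOX1si2, against 4.72 and 4.51% with siControl. JUNB held 49.0 to 54.9% and JUND 36.4 to 46.1% over all libraries. In siControl the order of mean levels was JUNB at 82.7, JUND at 77.2, EGR1 at 38.2, FOSL1 at 36.5, FOSL2 at 9.59, JUN at 7.73, FOS at 3.54, ATF3 at 1.59 and FOSB at 0.613 CPM per kilobase. The ranges of JUNB and JUND overlapped, as did those of EGR1 and FOSL1 and those of FOSL2 and JUN. The order depends on the length used. Per kilobase of coding length, siControl libraries had FOSL1 at 89.9 and 79.3 CPM, above EGR1 at 73.4 and 73.7 CPM, and ATF3 at 17.3 and 6.31 CPM spanned FOS at 9.67 and 10.5 CPM. Per kilobase of merged exon, with HMOX1si1 FOSL1 had the highest mean, 121 ± 21.9 CPM per kilobase, next to JUNB at 113 ± 14.6 and EGR1 at 103 ± 20.5 (SD, n = 2 each), whose ranges overlapped.

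**Figure D3:**
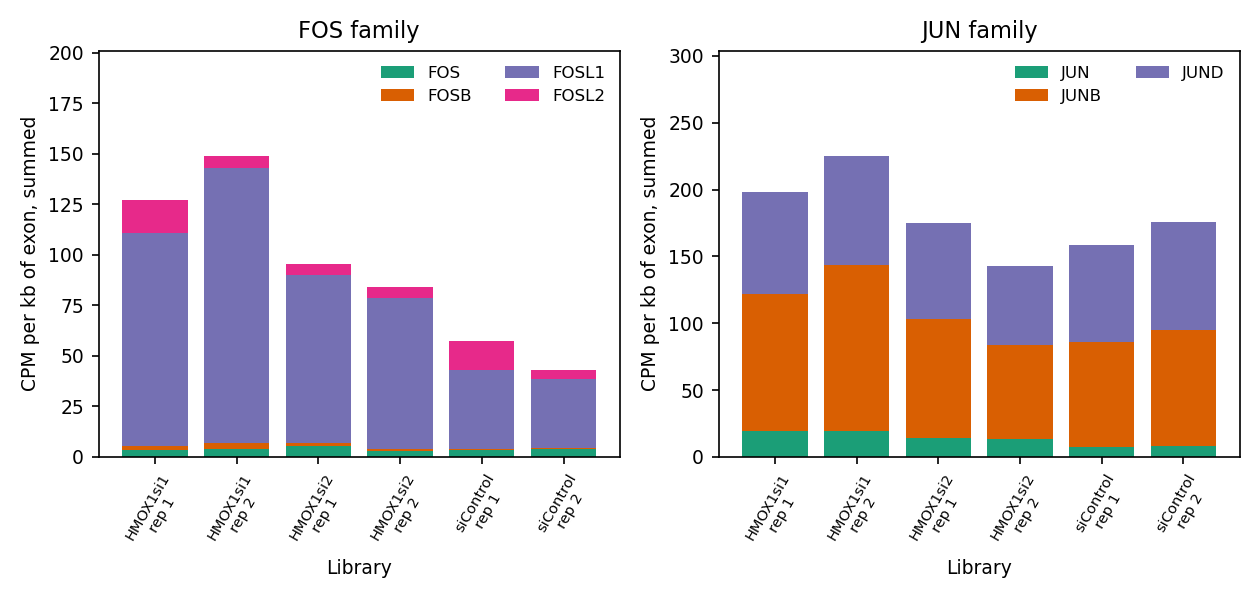
Summed CPM per kilobase of merged exon in each library for the FOS genes (left panel) and the JUN genes (right panel), with HMOX1si1, HMOX1si2 and siControl libraries from left to right. The FOS sum is highest with HMOX1si1, at 127 and 149, and lowest with siControl, at 57.4 and 43.0, and FOSL1 is its main part, while the JUN sum is mostly JUNB and JUND.

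The 9 profiles over the 6 libraries split in the same way. Pearson's r of log2 CPM between FOSL1 and FOSB, JUN and EGR1 was 0.99, 0.98 and 0.95, whereas FOSL1 had r of 0.26 with FOS, 0.02 with FOSL2 and 0.00 with JUND. These values describe 6 libraries in 3 groups and mostly repeat the order of the groups. Outside the 9 genes, the profiles most like FOSL1 among 10829 other genes were TAF1D, CD22 and OTUD1 (r 0.9978 to 0.9967). Those most like JUN were LAMB3, DUSP10 and RAB11FIP5 (0.9967 to 0.9954), and those most like EGR1 were LETM2, CALHM2 and PTPN1 (0.9987 to 0.9957). LAMB3, a laminin subunit, and DUSP10, a phosphatase of JNK and p38, had log2 fold changes on average of 1.30 and 1.28, near that of JUN. The nearest profiles of FOS, FOSL2 and ATF3 were PLEKHG5, HNRNPF and TSPYL4, with average log2 fold changes of 0.16, -0.19 and 0.21.

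Most other early response genes and most upstream kinases were not called, and the early response genes that were called were higher but for 1. Of 37 early response genes 9 rose and 1 fell on average, and 27 were not called (median log2 fold change 0.30, against -0.004 over all genes). Over all genes, 5.16% were called higher and 4.93% lower on average, which is the background for each list below. Against siControl with HMOX1si2 alone, 4 of the 37 were called higher and 1 lower (background 3.06% and 2.67%). PPP1R15A, which directs dephosphorylation of eIF2α, had 213 and 240 CPM with HMOX1si1 and 168 and 135 CPM with HMOX1si2, against 64.9 and 71.5 CPM with siControl. Its log2 fold change on average was 1.44 (SE 0.13, edgeR adjusted p = 0.00757). KLF10, a zinc finger repressor induced by TGF-beta, had 118 and 141 CPM with HMOX1si1 and 106 and 82.1 CPM with HMOX1si2, against 52.6 and 48.0 CPM with siControl (1.14, SE 0.14, edgeR adjusted p = 0.0145). Both genes lay above the controls in all 4 knockdown libraries.

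The orphan receptor gene NR4A2 (0.71), RHOB, a small GTPase (0.74), BTG1, an antiproliferative gene (0.60), and PHLDA1 (0.54) also rose, with edgeR adjusted p between 0.0103 and 0.0266. RHOB was at 1.17 with HMOX1si2 and 0.32 with HMOX1si1. PLK2 (0.39), CSRNP1 (0.51) and EGR2, which the EGR1 list also holds, completed the 9, and the first 2 were named after their values were seen. MCL1, a survival factor of the BCL2 family, was the 1 gene that fell (-0.41, SE 0.08, edgeR adjusted p = 0.0376), and it too was singled out after its values were seen. EGR3 (1.08, SE 0.45) and NR4A3 (1.09, SE 0.40) were not called. Both had under 2 CPM in every library.

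Among 13 measured partners with leucine zippers, 3 rose on average and 10 were not called (median 0.21). Of genes that fell, edgeR called 0, where 2 were lower at an unadjusted p under 0.05 and DESeq2 called 1. The 3 that rose were ATF1, a CREB relative (0.63, SE 0.11, edgeR adjusted p = 0.0288), ATF7 (0.75, SE 0.16, edgeR adjusted p = 0.0385) and CREB5 (0.99, SE 0.22, edgeR adjusted p = 0.0455). ATF7 and CREB5 are JUN partners of the ATF2 group. ATF7 shares exons with another gene of the table. Against siControl with HMOX1si2 alone, edgeR called 0 of the 13 partners, where 4 were higher and 1 lower at an unadjusted p under 0.05. DESeq2 called 2 higher and 0 lower there. MAFF, a small MAF protein, had 20.5 and 86.6 CPM with HMOX1si1 and 22.3 and 22.1 CPM with HMOX1si2, against 18.8 and 17.8 CPM with siControl. A single library stood apart, and the gene was not called (0.91, SE 0.53).

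EGR1's own circle moved in part. EGR2, a close relative that EGR1 can induce, had 5.70 and 6.88 CPM with HMOX1si1 and 3.64 and 2.37 CPM with HMOX1si2, against 1.71 and 1.94 CPM with siControl (1.25, SE 0.23, edgeR adjusted p = 0.0297). ICAM1, an adhesion molecule, rose too (1.02, SE 0.17, edgeR adjusted p = 0.0234). Of 13 EGR1 cofactors and described targets, 3 rose on average and 10 were not called (median 0.12), among them FN1 at -0.39 (SE 0.47). Against siControl with HMOX1si2 alone, edgeR called 1 of the 13, which was ICAM1.

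Genes described as AP-1 targets in epithelial or cancer cells did not move as 1 group. Of 21 measured, 3 rose, 1 fell and 17 were not called on average (median 0.07). CXCL8, a neutrophil chemokine, had 6.70 and 4.50 CPM with HMOX1si1 and 3.50 and 3.89 CPM with HMOX1si2, against 2.05 and 1.85 CPM with siControl (1.23, SE 0.21, edgeR adjusted p = 0.0260). HMGA2, a chromatin protein (0.54, SE 0.10, edgeR adjusted p = 0.0294), and MMP14, a membrane metalloprotease (0.43, SE 0.09, edgeR adjusted p = 0.0419), rose, and the cytokine gene LIF fell (-0.37, SE 0.07, edgeR adjusted p = 0.0370). The metalloprotease genes MMP10 (1.31, SE 0.49) and MMP13 (1.09, SE 0.26, edgeR adjusted p = 0.0509) were not called. Against siControl with HMOX1si2 alone, edgeR called 0 of the 21 higher and 2 lower, and CXCL8, HMGA2, MMP14 and LIF were not called. At an unadjusted p under 0.05, 4 were higher and 7 lower there, and DESeq2 called 4 higher and 5 lower.

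The average hides a split between the siRNAs in this list, where 4 genes were lower with HMOX1si2 than with HMOX1si1 and edgeR called 0 higher, where 1 was higher at an unadjusted p under 0.05 and DESeq2 called 0. MMP1 and CCND1, of these 4, were named after their values were seen. MMP1, a collagenase, had 8.62 and 7.01 CPM with HMOX1si2, against 17.2 and 17.0 CPM with HMOX1si1, and stood at 11.8 and 10.2 CPM with siControl. HMOX1si1 was above siControl and HMOX1si2 below it, without overlap. CCND1, which encodes cyclin D1, had 304 and 317 CPM with HMOX1si2, against 455 and 428 CPM with HMOX1si1, and stood at 469 and 436 CPM with siControl. Here HMOX1si1 overlapped siControl and HMOX1si2 lay below it. The log2 difference, HMOX1si2 minus HMOX1si1, was -1.13 for MMP1 (SE 0.15, edgeR adjusted p = 0.0209) and -0.51 for CCND1 (SE 0.09, edgeR adjusted p = 0.0440). CCND1 shares exonic bases with LTO1.

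**Figure D4:**
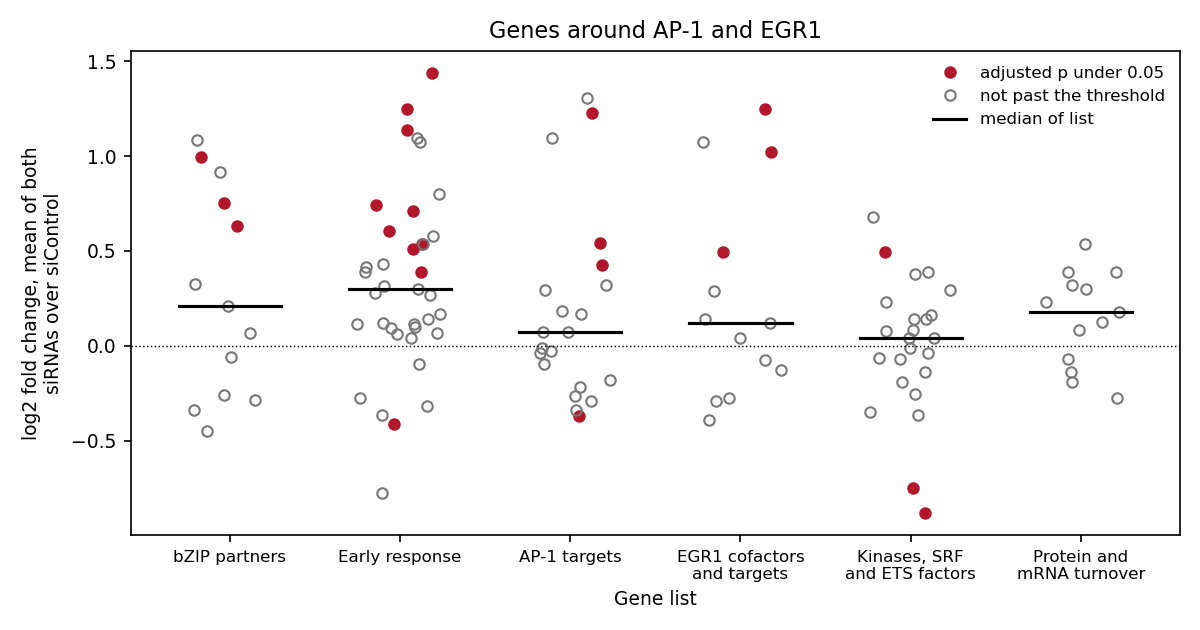
Log2 fold change averaged over both siRNAs against siControl for the genes of 6 lists; filled points passed an adjusted p under 0.05, open points did not, and lines are list medians. Early response genes have the highest median, 0.30, and the turnover list has no filled point.

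Upstream of the 9 genes, 24 kinases, serum response factors and their cofactors were measured. Of these, 1 rose, 2 fell and 21 were not called on average (median 0.04), where 5.16% of all genes were called higher and 4.93% lower. MAP2K7, a kinase that activates JNK, rose (0.50, SE 0.10, edgeR adjusted p = 0.0334). MAP2K4, also on this list, did not enter the fit. MAP2K3 and MAPK14, a kinase of the p38 branch and p38α itself, fell on average (-0.88 and -0.75, edgeR adjusted p = 0.0118 and 0.0225). Against siControl, MAP2K3 was at -1.65 with HMOX1si2 and -0.11 with HMOX1si1, and MAPK14 was at -1.20 with HMOX1si2 and -0.30 with HMOX1si1. MAP2K3 had 32.3 and 37.1 CPM with HMOX1si2, against 108 and 94.4 CPM with HMOX1si1, and stood at 105 and 113 CPM with siControl. MRTFB, a cofactor of serum response factor, was not called (0.68, SE 0.44) and had 20.6 CPM in siControl replicate 2, against 68.3 CPM in siControl replicate 1. MRTFA, which shares exonic bases with SGSM3, was at 0.39 (SE 0.11). Of 13 genes for turnover of FOS and JUN proteins or of AU-rich mRNAs, edgeR called 0 on average (median 0.18), where 2 were higher at an unadjusted p under 0.05 and DESeq2 called 2. ZFP36, which marks such mRNAs for decay, was at 0.54 (SE 0.26) and FBXW7, a ubiquitin ligase subunit that recognises c-Jun, at 0.39 (SE 0.13).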

How the data were processed

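The deposited table holds whole-number counts per Ensembl gene for 6 libraries; per the labels' protocols, RNA was taken with a column kit and made into mRNA libraries. No label or file header names an aligner, counter or counting strand, and that these are raw counts was inferred from the values, which differ in total between libraries. Values from 1 to 10 were even in 71.9% of cases and those over 100 in 49.9%, so mates of a fragment may have been counted apart. GRCm38 and mm10, which are mouse builds, appear in the submitters' processing notes, but gene identifiers are human, so coordinates and lengths come from GENCODE 29 (GRCh38) and the build behind the counts is not known. A symbol was matched for 20148 of 20263 identifiers.

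Counts were analysed in R 4.3.3 with edgeR 4.0.16 (filterByExpr, TMM, then glmQLFit and glmQLFTest on all 6 libraries with a coefficient for each group), adjusted by Benjamini-Hochberg over 13769 genes. Standard errors are the log2 fold change over the root of F, and log2 CPM used a prior count of 2. The script was tested on simulated data. Replicates differed by more than sampling noise (chi-square per degree of freedom 38.5 to 85.2). DESeq2 1.42.0, other scalings, filters, subsets and a replicate term were tried. The 9 genes and the 6 lists were chosen with earlier results of these data known. In each list, up to 6 called genes with the smallest p and up to 2 uncalled genes with the largest change are named, and for each member the 3 most similar profiles (mean log2 CPM 2 or more) were sought, of which some are named. Some list genes that this rule names are counted but not reported here.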

Additional observations from a re-analysis of the deposited data

Results flagged for a closer look

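The change against siControl differed between HMOX1si2 and HMOX1si1 for 8 of the AP-1, EGR1 and list genes named here. This rests on the fit's test of that difference over all genes (log2, HMOX1si2 minus HMOX1si1). Of the AP-1 genes this held for JUN, at -0.50, which is a description because JUN was chosen with these values known. Among early response genes the difference was 0.85 for RHOB, higher with HMOX1si2 (edgeR adjusted p = 0.0129), and -1.17 for CCN1, a matricellular protein gene (edgeR adjusted p = 0.0115). CCN1 had 58.3 and 51.2 CPM with HMOX1si2, against 114 and 132 CPM with HMOX1si1. Among the kinases it was -1.55 for MAP2K3 (edgeR adjusted p = 0.00761) and -0.90 for MAPK14 (edgeR adjusted p = 0.0324). Among the described AP-1 targets it was -1.13 for MMP1 (edgeR adjusted p = 0.0209) and -0.51 for CCND1 (edgeR adjusted p = 0.0440). NAB1, a corepressor of EGR proteins, differed by -0.76 (edgeR adjusted p = 0.0318). CCN1, MMP1, CCND1 and NAB1 were named after their values were seen, so the count of 8 partly reflects that naming. HMOX1, the targeted gene, also differed, at -1.10 (SE 0.17), and is not among the 8. Genes named for a similar profile were not counted.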

How the results depend on the processing

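Over the 12 alternatives of the average, log2 fold changes lay between 1.32 and 1.51 for FOSL1, 1.04 and 1.13 for JUN, 1.21 and 1.67 for FOSB and 0.91 and 1.26 for EGR1. Those of ATF3 lay between 0.83 and 2.28 and those of FOSL2 between -0.90 and 0.76. No call turned its direction among the genes and alternatives run. Leaving out 1 library gave 0 to 1594 called genes on average, 0 to 1492 with HMOX1si1, 0 to 362 with HMOX1si2 and 19 to 204 for HMOX1si2 minus HMOX1si1. Of the 9 AP-1 and EGR1 genes, 0 to 4 were called on average, 0 to 4 with HMOX1si1, 0 to 3 with HMOX1si2 and 0 for the difference. Of the list genes, 22 were called on average, and 0 to 23, 0 to 25 (HMOX1si1), 0 to 8 (HMOX1si2) and 2 to 6 (difference) without 1 library. Called genes on average were 290 without HMOX1si1 replicate 1, 180 without HMOX1si1 replicate 2, 705 without HMOX1si2 replicate 1 and 0 without either siControl library. A fit with 1 library in a group assumes that it varies like the others.

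Replicate numbers are shared between groups, but over all genes same-numbered libraries did not deviate together (r of 0.0079, 0.027 and -0.15 between pairs of groups). The labels do not say whether same-numbered libraries were paired, and an r over all genes cannot show it for single genes. With the replicate block, calls were 255 on average, 481 with HMOX1si1, 45 with HMOX1si2 and 87 for the difference. In that order, list genes called were 4, 9, 2 and 4, and AP-1 and EGR1 genes called were 3, 4, 0 and 0. With only the groups compared, 179 genes were called with HMOX1si2 and 156 for the difference, of which 5 and 5 were list genes, and JUN was not called for the difference (0 of 9 genes). Without a filter on low counts JUN was likewise not called (0 of 9). DESeq2 called 2674 genes on average, 2639 with HMOX1si1, 1890 with HMOX1si2 and 1411 for the difference. In the same order, it called 33, 36, 29 and 21 list genes, and 5, 5, 4 and 4 of the AP-1 and EGR1 genes. The cause of these changes was not tested.

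With coding length in place of merged exons, FOSL1 held 73.0% of the FOS sum with HMOX1si1 and 75.8% with HMOX1si2, against 52.8% with siControl, and JUN held 17.0% and 16.2% of the JUN sum, against 8.89%. Among the list genes reported, low counts limit FN1, EGR3, NR4A3 and MMP10 most. Of the 9 genes, FOSB had the lowest single count, 127 in siControl replicate 2.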
